A study of Bos taurus with 8 samples.

Results

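The genes described here are 42 general epithelial junction and polarity genes, of 15229 named genes on a bovine oligonucleotide array. They were taken as a list of symbols, chosen with earlier results of these data known. All 42 symbols were found in the platform annotation, and each gene was represented by its probe with the highest mean log2 intensity over 8 arrays. The list holds 8 tight junction genes, 3 genes of apical polarity and protein sorting, 10 genes of adherens junctions and desmosomes, 8 regulators of transcription and splicing, 4 membrane proteases and inhibitors, 5 genes of a receptor, adaptors and the cytoskeleton, and 4 other membrane protein genes.

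RNA came from granulosa cells of Holstein cows. The cells were aspirated on day 60 after calving, 42 h after a prostaglandin (PG) injection that both groups received, and from dominant follicles that measured over 9 mm. Group BHBH held cows in severe negative energy balance, with high blood beta-hydroxybutyrate, and group BHBL held cows in mild negative energy balance. Each group comprised 12 cows in 4 pools of 3, so that the spread between single cows was not measured. The age of the cows is not given in the labels. Every pool was amplified linearly before labelling, and 1 BHBH pool and 1 BHBL pool shared an array, on 2 arrays with exchanged dyes. The labels do not name the pools, and arrays with the same area number on the 2 slides were taken as 1 pool pair. BHBH was labelled with Cy5 on slide 289 and with Cy3 on slide 288, so slide and dye orientation cannot be told apart. The design asks whether the granulosa transcriptome differs between severe and mild energy deficit.

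Epithelial cells are held together by tight junctions, which seal the space between neighbouring cells near the apex, by adherens junctions, which tie cadherins to actin, and by desmosomes, which tie desmosomal cadherins to keratin filaments. Polarity complexes and sorting adaptors keep apical and basolateral membranes distinct, and a set of epithelial transcription factors and splicing regulators maintains this programme. Granulosa cells form an epithelium without blood vessels that lines the follicle and are known for cadherin contacts and gap junctions, while many genes of the list are best known from surface and glandular epithelia.

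The values are given as a ratio and as a level. The ratio is the deposited log2 ratio of BHBH over BHBL, averaged over both arrays of a pool pair, so that n = 4 pool pairs and a value of -1 is a level 2-fold lower in BHBH. Its errors are moderated standard errors (SE) from limma, and adjusted p-values are Benjamini-Hochberg values over all 37233 features. The level of each gene in each pool is the log2 normalised intensity computed from the scanner files. It shows the pools one by one, and since it comes from another source than the deposited ratios, differences of levels need not equal them. Levels are compared between pools for 1 gene and not between genes.

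The pools differed in more than the list. All 10 granulosa markers exceeded the negative controls on 8 of 8 arrays in both groups, and the probes of INHA and INHBA were also saturated, on 6 and 7 BHBH arrays and on 6 and 4 BHBL arrays. The summed level of the 8 unsaturated markers, as log2, lay between 15.51 and 16.67 in BHBH pools and between 15.34 and 16.73 in BHBL pools. The median log2 ratio of all 10 was 0.12 on average, a value set by the saturated probes of INHA and INHBA. Means of the 10 markers ran from -0.30 to 0.62. Their median was -1.24 in pair 1 and 0.98 in pair 4, where INHBA also entered it. In pair 1 the theca and stroma markers had a median ratio of 2.08, and in pair 4 the leukocyte markers had one of -1.70. In bulk RNA of this kind, fewer cells of a type and less RNA per cell cannot be told apart.

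Most of the epithelial genes were lower in BHBH, without passing the test. Of the 42 genes, 36 were lower on average and 6 were higher, while of all 37233 features 16778 were lower and 20455 higher. The median log2 ratio of the list was -0.43 against 0.012 over all features. The lowest were PPL (periplakin, 9.02-fold lower), FXYD3 (a regulator of the sodium pump, 4.52-fold), ERBB3 (a receptor for neuregulins, 4.29-fold) and PRSS8 (prostasin, a membrane-anchored protease, 3.68-fold). No gene of the list was 2-fold higher. With limma on 4 pool pairs, 0 of 42 genes passed at adjusted p under 0.05, as did 0% of all features, and the adjusted p of the 42 lay between 0.864 and 1.

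Counts of single measures ran one way. At unadjusted p under 0.05, 16 of the 42 were lower (38.1%, against 2.57% of all features) and 0 were higher (against 2.84%). On average, 9 were at least 2-fold lower (21.4%, against 0.857%) and 0 at least 2-fold higher (against 0.051%). Lower values in every pool pair were found for 15 genes (35.7%, against 6.9%), and higher values in every pair for 0 (against 9.22%). In the pool levels, every BHBH pool was below every BHBL pool for 11 genes (26.2%, against 1.61%), and every BHBH pool was above every BHBL pool for 0 (against 1.43%). The genes of the list were chosen with earlier results of these data known, so these shares describe the list and are no test of it.

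The counts and the median depended on single pool pairs. The list median was -0.054 in pair 1, -1.02 in pair 2, -0.47 in pair 3 and -0.16 in pair 4. Over all features the pair medians lay between 0.0019 and 0.029. Pair 2 gave the lowest of the 4 ratios for 29 of the 42 genes, a count that was not made over all features. Without pair 2 the list median was -0.23. Without pair 1, 24 genes were lower in each of the 3 remaining pairs (against 14.7% of all features) and 20 genes had no overlap between the groups (against 6.89%). Without pair 4, 18 genes had no overlap (against 5.11%). Dropping any pair leaves fewer pairs in which a gene has to be lower.

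**Figure D1:**
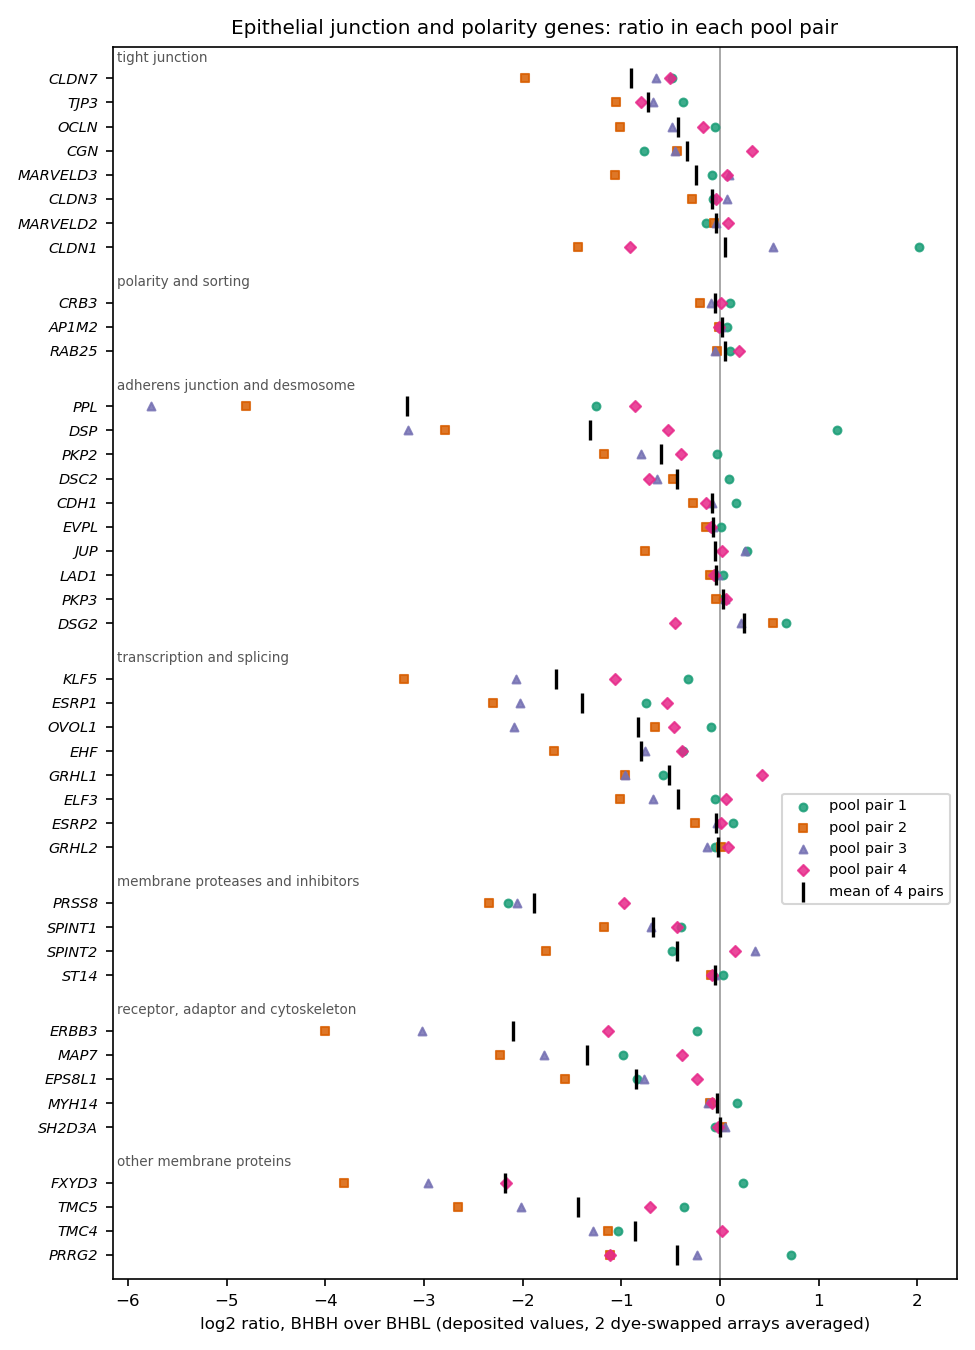
Deposited log2 ratio of BHBH over BHBL (horizontal axis) for each of the 42 genes, grouped by role. Coloured points are the 4 pool pairs, each the mean of 2 dye-swapped arrays, and the black bar is their mean. Mean ratios lie between -3.17 (PPL) and 0.24 (DSG2), and the points of pair 2 are often the farthest to the left.

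Among the 8 tight junction genes, 7 were lower on average and 1 was higher (list median -0.29), and 0 passed the test. CLDN7, a claudin, one of the membrane proteins that form the seal, read 7.005, 7.31, 7.17 and 7.41 log2 units in BHBH pools 1 to 4, against 7.41, 9.61, 7.77 and 7.96 in BHBL pools 1 to 4. No BHBH pool reached the lowest BHBL pool, although BHBH pool 4 and BHBL pool 1 nearly met, and BHBL pool 2 stood well above the others. Its mean ratio was -0.90 ± 0.30 (SE, n = 4), and -0.55 without pair 2. The CLDN7 probe exceeded the negative controls on 6 of 8 BHBH and 8 of 8 BHBL arrays. BHBL pool 1 did so narrowly on slide 288, at 158 against 155.6, so the pools that nearly met lay near this limit.

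TJP3, which encodes the scaffold ZO-3 below the tight junction, read 7.11, 7.13, 7.29 and 7.57 in BHBH pools, against 7.42, 8.55, 8.02 and 8.69 in BHBL pools. The groups overlapped through BHBH pool 4 and BHBL pool 1. The 4 pair ratios nevertheless lay close together, between -1.05 and -0.38, with a mean of -0.73 ± 0.12 (SE, n = 4). The TJP3 probe exceeded the negative controls on 7 of 8 BHBH and 8 of 8 BHBL arrays. Some BHBH signals lay near the limit, such as 126 against 125 on slide 289, area 3. Whether this limit narrowed the spread of the ratios was not tested. The adjusted p of TJP3 in limma was 0.864 on the averaged pairs, 0.0334 when the 8 arrays were fitted with the area number as a replicate block, and 0.108 when slide was added to that fit.

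OCLN (occludin, a membrane protein of the seal) was lower in every pair, with a mean ratio of -0.43 ± 0.18, and CGN (cingulin, of the cytoplasmic plaque) had a mean of -0.33 ± 0.20 with pair 4 at 0.33. The relatives MARVELD3 (-0.24 ± 0.23) and MARVELD2 (tricellulin, found where 3 cells meet, -0.041 ± 0.054) stayed closer to 0. CLDN3 was at -0.082 ± 0.072. The MARVELD2 probe exceeded the negative controls on 3 of 8 BHBH and 4 of 8 BHBL arrays. That of CLDN3 did so on 4 and 6, which limits both ratios. CLDN1 had pair ratios of 2.01, -1.44, 0.54 and -0.91, which scattered around a mean of 0.050 ± 0.64 (SE, n = 4). Its levels were 11.01, 8.23, 9.07 and 7.51 in BHBH pools, against 8.89, 10.01, 8.44 and 8.77 in BHBL pools, so BHBH held both the highest and the lowest pool.

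The 3 genes of polarity and sorting had small mean ratios, from signals near the negative control limit. Probes exceeded it on 8 BHBH and 8 BHBL arrays for CRB3, 8 and 7 for RAB25, and 7 and 7 for AP1M2. Some exceeded it narrowly, such as CRB3 at 125 against 116.2 in BHBH on slide 289, area 2. A small ratio near this limit does not show that the levels were alike. CRB3, a membrane protein of the apical Crumbs complex, had a mean ratio of -0.048 ± 0.067, RAB25, a small GTPase of apical recycling, one of 0.051 ± 0.061, and AP1M2, a subunit of the basolateral sorting adaptor AP-1B, one of 0.016 ± 0.041. In single pools, CRB3 read 7.98, 7.34, 7.41 and 7.47 in BHBH, against 7.74, 7.69, 7.49 and 7.38 in BHBL. The pools of both groups were mixed for all 3 genes. The slides disagreed in sign for all 3, with CRB3 at -0.42 on slide 289 and 0.33 on slide 288.

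Adherens junction and desmosome genes divided. Of 10, 8 were lower on average and 2 were higher (list median -0.079), and 0 passed. PPL, which encodes a plakin that links desmosomes and the cell cortex to intermediate filaments, read 11.45, 10.25, 8.58 and 10.78 in BHBH pools, against 12.73, 15.03, 14.80 and 11.83 in BHBL pools. The groups did not overlap, and BHBL pools 2 and 3 were the high ones. The mean ratio was -3.17 ± 1.03 (SE, n = 4), with pair ratios from -5.77 to -0.87, and it was -3.94 without pair 4 and -2.31 without pair 3.

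DSP, which encodes desmoplakin, the plakin of the desmosomal plaque, read 8.12, 7.61, 7.34 and 8.67 in BHBH pools, against 6.64, 10.79, 10.72 and 9.47 in BHBL pools. BHBL pool 1 was the lowest of the 8 pools and BHBL pools 2 and 3 the highest, so the groups overlapped. Its mean ratio of -1.32 ± 0.84 (SE, n = 4) combined 1.19 in pair 1 with -3.16 in pair 3. It was -2.16 without pair 1, -0.83 without pair 2 and -0.71 without pair 3. The DSP probe exceeded the negative controls on 7 of 8 BHBH and 6 of 8 BHBL arrays. BHBL pool 1 was below the limit on both slides, at 159 against 212 and 149 against 155.6. This limits the size of the ratio in pair 1.

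PKP2, a plakophilin of the desmosomal plaque, read 7.93, 7.29, 7.5 and 7.62 in BHBH pools, against 7.97, 8.82, 8.44 and 8.27 in BHBL pools. Every BHBH pool was below every BHBL pool, by a narrow margin for pool 1. The mean ratio was -0.60 ± 0.21 (SE, n = 4). DSC2, a desmosomal cadherin, read 6.73, 6.96, 6.94 and 6.98 in BHBH pools, against 6.70, 7.58, 7.66 and 7.96 in BHBL pools. BHBL pool 1 lay with the BHBH pools, and the other BHBL pools lay above them. The DSC2 probe exceeded the negative controls on 0 of 8 BHBH channels and on 6 of 8 BHBL channels. Its group means were 6.90 and 7.47, and no size of difference is given for this probe (adjusted p = 0.864 in limma). A further DSC2 probe exceeded the controls on 8 of 8 BHBH channels and on 5 of 8 BHBL channels. It had a mean ratio of 0.057, so the direction of the probe used does not extend to the gene.

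The remaining genes of this role had small mean ratios by the probe used, most of them from signals near the negative control limit. CDH1, which encodes E-cadherin, the cadherin of epithelial adherens junctions, read 6.93, 7.003, 7.09 and 6.93 in BHBH pools, against 6.78, 7.33, 7.12 and 7.27 in BHBL pools. The pools overlapped, and the mean ratio was -0.083 ± 0.085 (SE, n = 4). EVPL (envoplakin, the partner of periplakin) was at -0.074 ± 0.048 and JUP (plakoglobin, shared by both junction types) at -0.054 ± 0.20. LAD1 (an anchoring filament protein) was at -0.039 ± 0.045 and PKP3 at 0.025 ± 0.044. Probes exceeded the limit on 3 BHBH and 7 BHBL arrays for CDH1, 3 and 6 for EVPL, 7 and 6 for LAD1, 7 and 5 for PKP3, and 8 and 8 for JUP. The slides disagreed in sign for LAD1 and PKP3. Small ratios near this limit do not show that the levels were alike.

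DSG2, a desmosomal cadherin, was the highest of the 42 at 0.24 ± 0.21, but its probes disagreed. The probe used read 11.39, 11.57, 11.64 and 10.21 in BHBH pools, against 10.68, 11.12, 11.43 and 10.79 in BHBL pools, with the groups mixed. A further DSG2 probe had pair ratios of 0.96, -3.92, -3.06 and -1.51 with a mean of -1.88, and another had a mean of 0.041. The direction for DSG2 therefore depended on the probe, and the mean of its 3 probes was -0.53.

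All 8 regulators of transcription and splicing were lower on average, with a median of -0.66, and 0 passed the test. KLF5, a zinc finger factor of proliferating epithelia, read 7.47, 6.92, 7.19 and 8.24 in BHBH pools, against 7.70, 10.58, 9.41 and 9.51 in BHBL pools. BHBL pool 1 lay within the range of the BHBH pools, and the other BHBL pools lay above it. On average KLF5 was at -1.66 ± 0.52 (SE, n = 4), 3.17-fold lower. Its further probes were dimmer and at -0.43 and -0.16.

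ESRP1, which directs epithelial forms of splicing, read 7.94, 7.56, 7.74 and 8.02 in BHBH pools, against 8.75, 10.32, 10.09 and 8.78 in BHBL pools. The groups did not overlap. Its mean ratio was -1.40 ± 0.37 (SE, n = 4), while 2 further probes were at -0.31 and 0.034. Its relative ESRP2 was at -0.038 ± 0.076.

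EHF, an ETS family factor of epithelia, read 6.97, 7.15, 7.02 and 7.15 in BHBH pools, against 7.38, 9.15, 7.70 and 7.61 in BHBL pools. The BHBH pools were alike and all lower, with BHBL pool 2 far above the rest, and the mean ratio was -0.80 ± 0.26 (SE, n = 4). EHF exceeded the negative controls on 4 of 8 BHBH channels and on 8 of 8 BHBL channels. Whether readings near these controls narrowed the BHBH spread was not tested. ELF3, also of the ETS family, was at -0.42 ± 0.22.

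OVOL1, a zinc finger repressor, read 6.60, 6.66, 6.21 and 6.65 in BHBH pools, against 6.71, 7.45, 6.88 and 7.08 in BHBL pools, with no overlap. Its deposited mean ratio of -0.83 ± 0.36 (SE, n = 4) rested on pair 3, at -2.09, and was -0.41 without it. The arrays of pair 3 had opposite signs, at 0.59 on slide 289 and -4.77 on slide 288. On the latter array the scanner ratio was -1.59. Its signals were 259 in BHBH and 162 in BHBL, near the negative control limits of 236.1 and 125.2. The slides also differed, at -0.027 on slide 289 and -1.63 on slide 288, and the scanner intensities gave -0.50 with normexp and loess and -0.22 without background correction. The grainyhead factors, which regulate junction genes, were at -0.52 ± 0.27 for GRHL1 and at -0.025 ± 0.053 for GRHL2.

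Of the 4 membrane proteases and inhibitors, 4 were lower on average, with a median of -0.56. PRSS8 read 8.39, 8.75, 8.07 and 9.16 in BHBH pools, against 10.69, 11.40, 10.27 and 10.38 in BHBL pools. The gap between the highest BHBH pool and the lowest BHBL pool exceeded 1 log2 unit, and pair ratios of -2.15, -2.35, -2.06 and -0.97 had the smallest SD of the 9 genes at least 2-fold lower (0.617). The mean ratio was -1.88 ± 0.26 (SE, n = 4), and it lay between -2.18 and -1.73 with any pair left out. Its adjusted p in limma was 0.864 on averaged pairs, 0.00894 with the area number as a replicate block and 0.0251 with slide added to that block.

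SPINT1, which encodes HAI-1, an inhibitor of matriptase and prostasin, read 6.64, 6.75, 6.67 and 7.12 in BHBH pools, against 7.26, 8.31, 7.38 and 7.66 in BHBL pools. The groups did not overlap, and the mean ratio was -0.68 ± 0.15 (SE, n = 4). Its probe exceeded the negative controls on 2 of 8 BHBH channels and on 7 of 8 BHBL channels. SPINT2, which encodes the related inhibitor HAI-2, read 10.79, 10.95, 11.87 and 10.94 in BHBH pools, against 11.20, 12.85, 11.53 and 10.95 in BHBL pools. BHBH pool 3 and BHBL pool 2 were high, the groups overlapped, and the mean ratio was -0.44 ± 0.40 (SE, n = 4). ST14, which encodes matriptase, was at -0.049 ± 0.045.

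Within the receptor, adaptor and cytoskeleton genes, 4 of 5 were lower, with a median of -0.85, and 0 passed. ERBB3 read 10.28, 9.19, 8.70 and 10.67 in BHBH pools, against 10.58, 13.25, 12.02 and 11.95 in BHBL pools. BHBL pool 1 lay just below BHBH pool 4, and BHBL pools 2 to 4 were above all BHBH pools. On average ERBB3 was at -2.10 ± 0.71 (SE, n = 4), with -0.24 in pair 1 and -4.01 in pair 2.

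MAP7, a microtubule-binding protein of epithelia, read 8.81, 8.18, 8.71 and 9.02 in BHBH pools, against 9.74, 10.75, 10.68 and 9.67 in BHBL pools. The groups did not overlap. MAP7 averaged -1.35 ± 0.34 (SE, n = 4), and 3 further probes were at -1.19, -0.85 and -0.026. EPS8L1, related to the actin regulator EPS8, read 7.22, 7.08, 7.24 and 7.28 in BHBH pools, against 8.23, 9.05, 7.96 and 7.44 in BHBL pools. The BHBH pools lay within a narrow band below all BHBL pools, and the mean ratio was -0.85 ± 0.23 (SE, n = 4). The EPS8L1 probe exceeded the negative controls on 7 of 8 BHBH channels and on 8 of 8 BHBL channels. MYH14, a non-muscle myosin heavy chain, was at -0.033 ± 0.069, and the adaptor SH2D3A had pair ratios between -0.052 and 0.052.

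The 4 other membrane protein genes were all lower on average, with a median of -1.15. FXYD3 read 8.47, 8.95, 8.19 and 9.03 in BHBH pools, against 8.21, 13.08, 11.50 and 11.55 in BHBL pools. BHBL pool 1 was as low as the BHBH pools, and the other 3 BHBL pools were far above every BHBH pool. The mean ratio was -2.18 ± 0.72 (SE, n = 4), with pair 1 at 0.23 and pair 2 at -3.81.

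TMC5, of the transmembrane channel-like family, read 7.41, 7.59, 7.48 and 7.55 in BHBH pools, against 7.98, 10.65, 9.84 and 8.57 in BHBL pools. BHBH pools differed by little among themselves (SD 0.079), whereas BHBL pools spread widely (SD 1.21), with no overlap. Some BHBH signals lay near the negative control limit, such as 143 against 125 on slide 289, area 3. Whether this limit narrowed the BHBH spread was not tested. The TMC5 ratio averaged -1.44 ± 0.45 (SE, n = 4). Its relative TMC4 read 9.48, 10.08, 10.10 and 11.22 in BHBH pools, against 10.52, 11.38, 11.53 and 11.32 in BHBL pools, with a mean ratio of -0.86 ± 0.25 (SE, n = 4). For TMC4 the groups overlapped through BHBH pool 4, and a further probe was at -0.0039. PRRG2, a membrane protein with a Gla domain, was at -0.44 ± 0.37.

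**Figure D2:**
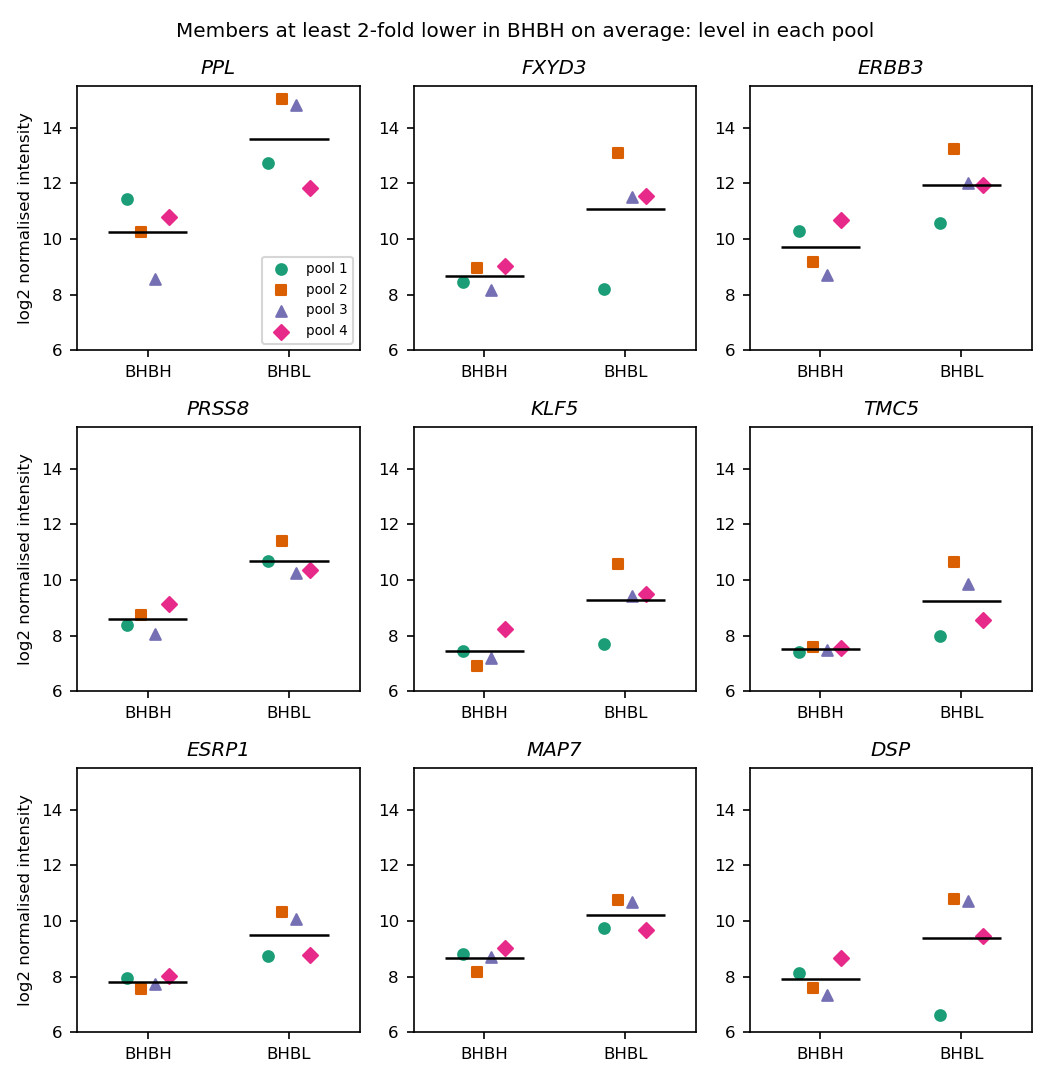
Level in each pool, as log2 normalised intensity on the vertical axis, for the 9 genes at least 2-fold lower on average, with BHBH left of BHBL. Points are pools, coloured by pool pair, and bars are group means of 4 pools. BHBL pool 1 lies near the BHBH pools for FXYD3, KLF5 and ERBB3 and below them for DSP, while PPL, PRSS8, TMC5, ESRP1 and MAP7 show no overlap.

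The differences came with a wide spread among BHBL pools. The SD of the level was larger among BHBL pools than among BHBH pools for 33 of 42 genes (78.6%, against 50% of all features), with a median SD of 0.22 in BHBH and 0.51 in BHBL, against 0.18 and 0.17 over all features. In BHBH, 22 of the 42 probes exceeded the negative controls on 8 of 8 arrays, against 28 in BHBL. Whether levels near this limit narrowed the BHBH spread was not tested. BHBL pool 2 was the highest of the 8 pools for 27 of 42 genes (64.3%, against 14.5% of all features). Log2 ratios of the 42 genes correlated at r = 0.858 between pairs 2 and 3, 0.694 between pairs 2 and 4 and 0.578 between pairs 3 and 4, and at -0.061 to 0.381 between pair 1 and the others. Over all features r was 0.43, 0.283 and -0.0147 for the same 3 comparisons, and -0.415 to 0.18 between pair 1 and the others. Genes of 1 pair share its arrays and are not independent, and r is given as a description across 42 genes.

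Most of the larger differences were alike in both dye orientations. The 9 genes at least 2-fold lower had ratios between -3.22 and -1.23 on slide 289 and between -3.13 and -1.21 on slide 288, and 7 of the 9 were lower in every pool pair, FXYD3 and DSP being higher in pair 1. Of all 42 genes, 28 were lower on both slides (66.7%, against 19.1% of all features), 2 were higher on both (4.76%, against 24.8%) and 12 had opposite signs (28.6%, against 56.2%). A mean ratio within 0.1 of 0 was found for 16 genes, of which 5 were higher on average. Of these 16 genes, 6 exceeded the negative controls in both groups on 8 of 8 arrays, whereas 8 of the 9 genes at least 2-fold lower did so, with DSP as the exception.

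Signals of the probes used were set against the negative control spots, with the limit at their mean plus 2 SD in each channel of each array. In BHBH, 22 of the 42 probes exceeded the limit on 8 of 8 arrays, 15 on 4 to 7 arrays, 4 on 1 to 3 arrays and 1, of DSC2, on 0 arrays. In BHBL, 28 exceeded it on 8 of 8 arrays and 14 on 4 to 7 arrays, with 0 below that. For 15 probes the limit was exceeded on fewer arrays in BHBH than in BHBL (all features 17%), for 5 on more arrays in BHBH (16.8%), and for 22 on equally many (66.1%). A reading below the limit means that the probe was not above the control spots, and it does not show that the transcript was absent.

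**Figure D3:**
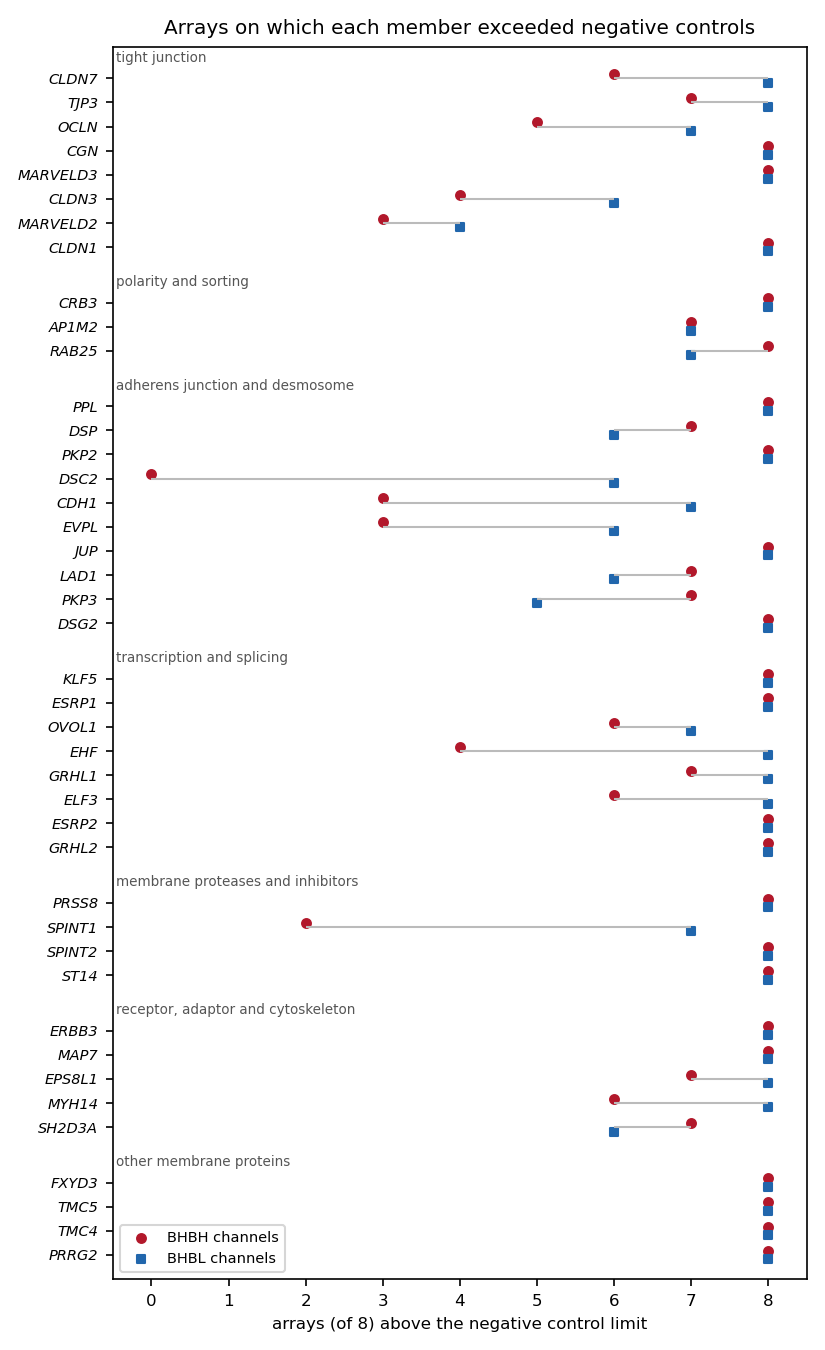
Number of arrays, of 8, on which the probe used for each of the 42 genes exceeded the negative control limit (horizontal axis), in BHBH channels (red circles) and BHBL channels (blue squares). The widest gaps are those of DSC2 (0 in BHBH and 6 in BHBL), SPINT1 (2 and 7), EHF (4 and 8) and CDH1 (3 and 7), all with fewer arrays in BHBH, although a further DSC2 probe, not plotted, was above the limit on 8 BHBH and 5 BHBL arrays.

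Probes of 1 gene did not always run together. Further probes, 22 in all, were present for 15 of the 42 genes, and 9 of the 22 had a mean ratio of opposite sign to the probe used. Besides DSG2, these belonged to CGN, RAB25, DSC2, GRHL1, ESRP1, ESRP2 and SPINT2, where they lay between -0.064 and 0.084. Which probe matches which transcript form was not tested.

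Junction and polarity genes outside the list were examined as a list of 35, of which 28 were measured. On average 22 of them were lower and 6 higher, with a median of -0.097, and 0 passed the test. At unadjusted p under 0.05 in limma, 6 of the 28 were lower (against 2.57% of all features). This list, too, was chosen with earlier results of these data known. CLDN4, a claudin, read 9.28, 10.82, 8.82 and 11.22 in BHBH pools, against 12.12, 14.69, 13.57 and 13.52 in BHBL pools, a mean ratio of -3.25 ± 0.45 (SE, n = 4). F11R, a junctional adhesion molecule, read 9.12, 9.64, 9.61 and 10.51 in BHBH pools, against 10.72, 12.12, 11.62 and 11.87 in BHBL pools, a mean ratio of -1.69 ± 0.19. In both genes every BHBH pool was below every BHBL pool. The receptor CXADR, a junction protein, was at -0.31 ± 0.093, and the polarity kinase PRKCZ at -0.23 ± 0.071. Their probes exceeded the negative controls on 5 BHBH and 6 BHBL arrays for CXADR and on 3 and 5 for PRKCZ, which limits both ratios. CXADR was at -0.08 on slide 289 and at -0.54 on slide 288. For both genes the groups overlapped. On averaged pairs, CLDN4 and F11R each had an adjusted p of 0.864 in limma. With the area number as a replicate block these were 0.0037 and 0.0013, and with slide added 0.0161 and 0.00582.

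Of 10 genes that are known for mesenchymal cells, 9 were measured, 4 lower and 5 higher on average, at a list median of 0.0003, and 0 passed the test. TWIST1, a transcription factor, was at 0.54 ± 0.25 and higher in every pair. VIM, which encodes vimentin, an intermediate filament protein of granulosa and mesenchymal cells, was at 0.057 ± 0.043, with saturated spots on 2 BHBH arrays. SNAI1 was at -0.14 ± 0.080. SNAI2, also a repressor of E-cadherin, exceeded the negative controls on 0 of 8 BHBH channels and 5 of 8 BHBL channels. Its group means were 6.68 and 7.05, and its ratio in pair 1 was 0.14 (adjusted p = 0.864 in limma). No size of difference is given for it.

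Markers of surface and glandular epithelia, like most genes of the list, were lower in BHBH. All 5 simple epithelium markers were lower on average, with a median ratio of -2.02 and pair medians of 0.21, -2.90, -3.63 and -1.86. Their summed level, as log2, lay between 12.44 and 16.74 in BHBH pools and between 15.40 and 17.22 in BHBL pools. EPCAM, an adhesion molecule of epithelia, was at -2.93 ± 0.80, KRT19 at -2.02 ± 0.75 and KRT8 at -1.45 ± 1.45, these 2 being keratins of simple epithelia that granulosa cells can also hold, with saturated spots on 2 and 1 BHBL arrays. In pair 1 the markers went both ways, with KRT18 at 3.67, KRT8 at 3.62, KRT19 at 0.21, EPCAM at -0.93 and KRT7 at -2.32.

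All 7 glandular epithelium markers were lower on average, and 7 were so at unadjusted p under 0.05 in limma (against 2.57% of all features). They had a median of -2.38 and pair medians of -1.93, -3.82, -2.50 and -1.87. The summed level lay between 11.17 and 13.97 in BHBH pools and between 12.61 and 16.99 in BHBL pools. TFF3, a mucosal trefoil peptide, was at -2.38 ± 0.65, LTF, lactoferrin, at -2.08 ± 0.61 and WFDC2, a secreted protein of glands, at -2.39 ± 0.15. The adjusted p of WFDC2 in limma was 0.864 on averaged pairs, 0.000414 with the replicate block and 0.00276 with slide added to that block.

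Of 8 squamous epithelium markers, 5 were lower and 3 higher on average (list median -0.46). Their summed level lay between 10.93 and 11.75 in BHBH pools and between 11.40 and 14.67 in BHBL pools. KRT13, a keratin of stratified mucosa, was at -2.95 ± 0.69 (adjusted p = 0.0479 in limma with the replicate block and 0.096 with slide added), IVL, involucrin, at -1.65 ± 0.75 and KRT6A at 0.084 ± 0.11. Of the 20 markers on the 3 epithelial lists, each exceeded the negative controls on at least 3 arrays in either group. The part of such cells in the differences of the 42 genes was not tested.

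Of the 9 leukocyte markers, 4 were lower and 5 higher on average (list median 0.020). CD163 was at 0.15 ± 1.28, CD68 at 0.28 ± 0.89 and CD3E at -0.46 ± 0.48. At unadjusted p under 0.05 in limma, 2 of the 9 were lower (against 2.57% of all features). They were the calprotectin genes S100A8 (-2.35 ± 0.77) and S100A9 (-2.26 ± 0.75), which are named here after their values were seen. S100A8 had pair ratios of -0.77, -3.34, -4.49 and -0.82, and S100A9 of -0.33, -3.34, -4.19 and -1.20. For both, every BHBH pool was below every BHBL pool. Calprotectin genes are also expressed by epithelia, and their part in the result was not tested. Of the red cell markers, 4 were measured, with a median of -0.21, and HBB was at -0.97 ± 1.70, HBA at -0.19 ± 0.71 and ALAS2 at -0.23 ± 0.28. All 7 theca and stroma markers were lower on average, with a median of -0.67 but 2.08 in pair 1, and LUM, lower in every pair, was at -1.21 ± 0.43, COL1A2 at -1.09 ± 1.48 and COL3A1 at -1.40 ± 1.51. The 5 endothelium markers had a median of 0.014, with VWF at -0.066 ± 0.087, TEK at -0.037 ± 0.061 and CLDN5 at 0.059 ± 0.10. Among granulosa markers CYP19A1 (aromatase) was at -0.24 ± 0.58, and for INHA (inhibin alpha) and INHBA no difference is given because of the saturated spots. No gene on these marker lists passed the test on averaged pairs.

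**Figure D4:**
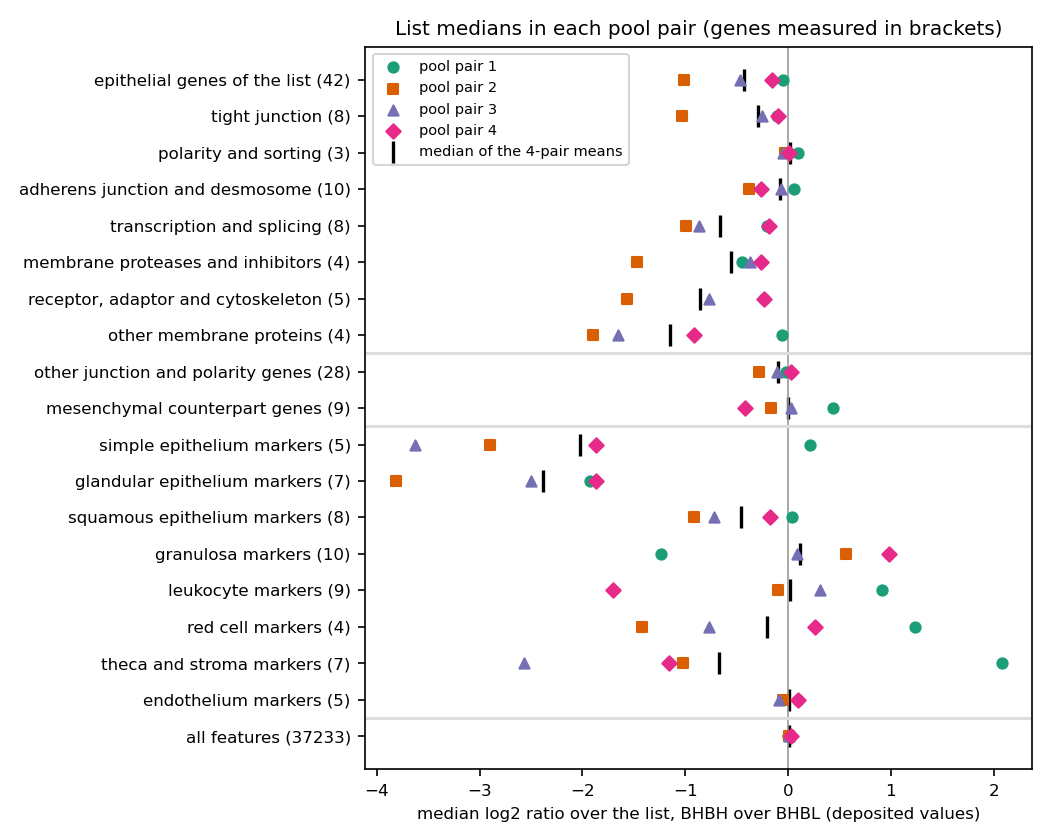
Median log2 ratio of BHBH over BHBL (horizontal axis) of each list in each pool pair (points) and over the 4-pair means (black bars), with the number of genes measured in brackets. The 42 genes lie at -0.054, -1.02, -0.47 and -0.16 in pairs 1 to 4, the simple epithelium markers have a median of 0.21 in pair 1, where they ran from -2.32 to 3.67, and lie far below 0 in the other pairs, and all features lie near 0 in each pair.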

How the data were processed

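Per the file headers, each deposited scanner file holds the foreground and background intensity of every spot at 532 nm (Cy3) and 635 nm (Cy5). The authors also deposited 1 table of log2 ratios for the series. Per the submitters' processing notes limma was used, with its background and normalisation settings not given in the sources used here. These ratios correlated with ratios of the scanner intensities at r = 0.941 to 0.96 per array. On either slide they were BHBH over BHBL, with array medians from -0.0142 to 0.0396.

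Each array held 45212 spots, of which 43794 were probes and 153 negative controls, and 21790 probes carried 1 symbol of an older platform annotation. Of these, 1 probe per symbol was used, and 22004 probes without a symbol were tested too. No filter on dim probes was applied, so every one of the 42 genes was tested. Both arrays of an area number were averaged and the 4 values tested against 0 in R 4.3.3 with limma 3.58.1 (lmFit, eBayes), adjusted by Benjamini-Hochberg. The threshold was an adjusted p of 0.05. Arrays of the same area number correlated at r = 0.606 to 0.753 and those of different areas at -0.459 to 0.502, which is the check of the pairing. Pool levels came from scanner intensities (normexp with offset 50, loess, Aquantile). Between 68.1% and 82.2% of features exceeded the negative controls, the mean plus 2 SD of these spots, in a channel. The number of arrays limits the precision.

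The 42 genes and the other lists were chosen with earlier results of these data known. Named were all 42 genes, up to 4 genes each of the other junction and mesenchymal lists by smallest p, and up to 3 of each marker list by intensity. Of 101 further listed symbols, 92 were measured, some under older names. The procedure was tested on simulated data. Sequences and coordinates were not used here. Alternatives covered the ratio source, background, normalisation, scale, centring, dim probes, probe choice, replicate block, slides, separate channels, variance model, the control limit and each pool pair left out. Those for the counts of genes 2-fold lower, lower in every pair or without overlap were chosen after seeing the data.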

Additional observations from a re-analysis of the deposited data

Results flagged for a closer look

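Among 176 groups of 4 values examined, 9 held 1 value that stood far from the other 3, by Dixon's ratio at its 95% critical value. Chance gives about 1 in 20 groups. Pair 2 stood apart for the log2 ratio of CLDN7 (-1.97, others -0.65 to -0.49), of MARVELD3 (-1.06, others -0.085 to 0.094), for the median of the tight junction genes (-1.03, others -0.25 to -0.10) and for that of the membrane proteases and inhibitors (-1.47, others -0.44 to -0.26). Pair 1 stood apart for MYH14 (0.17, others -0.12 to -0.086) and pair 4 for the macrophage gene CD68 (-2.95, others 1.18 to 1.496). In pool levels, BHBH pool 1 stood low for DSC2 (6.73, others 6.94 to 6.98), BHBH pool 3 low for OVOL1 (6.21, others 6.60 to 6.66) and BHBH pool 3 high for SPINT2 (11.87, others 10.79 to 10.95).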

How the results depend on the processing

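With the 8 arrays fitted and the area number as a replicate block, limma called 134 features (111 lower and 23 higher in BHBH), among them 2 of the 42 genes, PRSS8 (adjusted p 0.00894) and TJP3 (0.0334). With slide as a term beside the replicate block it called 55 (50 lower, 5 higher), among them 1 of the 42, PRSS8 (0.0251). The replicate block changed no other call among the 42. These fits use 8 array values with 1 common correlation within area numbers, where the averaged pairs give 4 values, so their p-values rest on more values than pool pairs. The other alternatives run gave 0 called features in limma, with smallest adjusted p of 0.0834 to 1, against 2015 features (5.41%) at unadjusted p under 0.05 on averaged pairs. The list median stayed between -0.55 and -0.23 in every alternative. With 1 pool pair left out, 8 to 12 genes were at least 2-fold lower (0.669% to 1.46% of all features), 15 to 24 lower in every remaining pair (10.1% to 14.7%) and 11 to 20 without overlap (3.67% to 6.89%), the highest of the last counts being without pair 1 (24 and 20) and, for overlap, also without pair 4 (18). When all probes of a symbol were averaged, 6 were at least 2-fold lower. Of the 42 genes, 25 were lower in all 17 alternatives and 17 changed sign in at least 1, of which SPINT2 had the largest difference (-0.44). Probes at or near the negative controls limit what can be seen for the genes not above them on every array. Genes above the controls on 8 of 8 arrays numbered 18 to 27 in BHBH and 23 to 28 in BHBL with other limits or background subtraction.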
